A study of Mus musculus with 50 samples.

Results

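The 37 genes of the mouse mitochondrial genome were followed through 3 sets of RNA libraries, namely quadriceps muscle, perigonadal white adipose tissue (pgWAT) 1 h after injection and pgWAT 6 h after injection. They were chosen by name, as the genes whose symbol begins with mt- in the pgWAT 6 h table, and were joined to the other tables by gene identifier. All 37 were found in each table, among 55414 genes in the quadriceps and pgWAT 1 h tables and 55401 genes in the pgWAT 6 h table. They comprised 2 ribosomal RNAs, 22 transfer RNAs (tRNAs) and 13 protein genes, and no measured value entered the choice.

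All libraries came from male mice with the hM3DGq allele, a designer receptor that makes neurons fire when its ligand clozapine-N-oxide (CNO) is given. TG mice were Gfral Cre-positive and WT mice were their Cre-negative counterparts. Gfral, the receptor of the hormone GDF15, is known mainly from hindbrain neurons, and Cre activity was not measured in either tissue here. Every mouse received 1 mg/kg CNO, and there was no group without it. Quadriceps was taken at a clamp (10 TG and 10 WT libraries), and pgWAT was taken 1 h after CNO (9 TG and 9 WT libraries) or 6 h after it (6 TG and 6 WT libraries). One quadriceps library, TG replicate 10, has a treatment label of 1 h beside a title that names the clamp, and it was grouped by its title. Nothing in the labels ties each library to its own mouse, and p-values therefore reflect only how far these libraries spread, part of which may be technical.

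The mitochondrial genome is a small circle with genes on both strands. Each strand is copied by the polymerase POLRMT with the factors TFAM and TFB2M into long precursors, and most messages and both ribosomal RNAs are cut free where a tRNA folds between them. The proteins are core subunits of respiratory complexes I, III, IV and V, which adipocytes and muscle fibres use to burn fuel, while the remaining subunits are encoded in the nucleus and imported. Most of the messages end in short poly(A) tails, whereas a finished tRNA has none. A library primed on poly(A) tails therefore sees tRNA genes only through uncut or tailed RNA, and a count on a tRNA gene is not a measure of finished tRNA. In bulk tissue, fewer cells of a type and less RNA per cell cannot be told apart.

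The counts of several protein genes cannot be taken at face value, because chromosome 1 holds a copy of part of the mitochondrial genome. How reads with several matches were treated is not given, and the part of the copy in the counts was not tested. Per GENCODE vM21 on GRCm38, transcripts annotated in chr1:24611535-24616197 on the minus strand match chrM 6381 to 11042, from within mt-Co1 to within mt-Nd4. Of the mt-Co2 transcript 100% lay in 50-base stretches also found in a nuclear transcript, and the figure was 99.9% for mt-Co3, 99.6% for mt-Atp6, 99.0% for mt-Nd4l and 98.3% for mt-Nd3. It was 74.9% for mt-Co1, 63.6% for mt-Nd4, 24.3% for mt-Nd5, 17.2% for mt-Nd2 and 4.11% for mt-Rnr2. It was 0% for mt-Rnr1, mt-Nd1, mt-Nd6, mt-Cytb and mt-Atp8. For mt-Atp8 this value says little, since its last 43 bases overlap mt-Atp6, which the copy Gm10925 matches, and are too few for a 50-base stretch, while the bases before them fall in a gap of 233 bases between annotated copies that was not compared. The last 100 bases of mt-Co3 (chrM:9291-9390, plus strand) and its copy Gm28437 (chr1:24613189-24613287, minus strand) show why a read from that end has 2 homes. All 99 bases shown of the copy match the message. The capital marks the final base of the message, which has no counterpart in the annotated copy.
mt-Co3: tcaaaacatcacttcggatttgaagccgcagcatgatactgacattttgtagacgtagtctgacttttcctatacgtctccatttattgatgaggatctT
Gm28437: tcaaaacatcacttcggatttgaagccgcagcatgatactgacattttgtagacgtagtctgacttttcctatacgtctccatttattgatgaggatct

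The message of mt-Nd3, a small subunit of complex I, is almost as close to its copy Gm28438, with 1 differing base in 345. That base is T3C, counted from 1 at the 5′ end of the transcript with the mitochondrial base first. The first 80 bases are shown because they hold it, as a capital, at chrM:9459-9538 and at chr1:24613040-24613119 on the minus strand.
mt-Nd3: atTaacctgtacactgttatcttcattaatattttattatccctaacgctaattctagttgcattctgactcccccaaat
Gm28438: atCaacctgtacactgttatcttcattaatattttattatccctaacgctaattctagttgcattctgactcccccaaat

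The 3′ ends are shown because poly(A)-primed reads come from there. In mt-Nd3 (chrM:9727-9806) the capitals mark the 3 bases that the annotated copy (chr1:24612775-24612851, minus strand) lacks.
mt-Nd3: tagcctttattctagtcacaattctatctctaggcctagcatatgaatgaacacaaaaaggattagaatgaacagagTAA
Gm28438: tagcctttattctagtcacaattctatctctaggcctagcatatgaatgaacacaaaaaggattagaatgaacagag

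The message of mt-Nd4, a large membrane subunit of complex I, has a copy, Gm28439, that stops at base 876 of its 1378. The stretch across that point (chrM:10993-11092, against chr1:24611535-24611584 on the minus strand) and the last 100 bases of the message (chrM:11445-11544) are shown because they hold sequence absent from that copy. Capitals mark bases with no counterpart in the annotated copy.
mt-Nd4, from base 827: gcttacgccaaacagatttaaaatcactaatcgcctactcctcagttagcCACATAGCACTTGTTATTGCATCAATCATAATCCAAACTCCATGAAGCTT
Gm28439, from base 827: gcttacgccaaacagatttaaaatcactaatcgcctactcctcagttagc
mt-Nd4, from base 1279: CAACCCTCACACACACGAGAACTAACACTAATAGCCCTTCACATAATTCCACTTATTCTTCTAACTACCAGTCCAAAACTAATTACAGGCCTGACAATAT

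The 5 messages with the highest percent of shared sequence had far fewer counts than mt-Nd4 in each set. Over all libraries mt-Nd4 had 348175 counts in quadriceps, and its pgWAT totals were 226496 at 1 h and 5471924 at 6 h. The 5 messages that lie almost wholly within the copied stretch had between 1 and 7 counts each in quadriceps, at most 1 at 1 h and between 0 and 27 at 6 h, except mt-Nd3 with 521 counts at 6 h. Gm28438, the copy of mt-Nd3, had 455, 111 and 29952 counts in quadriceps, at 1 h and at 6 h, far more than mt-Nd3 itself in each table. The other annotated chromosome 1 copies had at most 29 counts each in any set. The small complex V subunit mt-Atp8, whose end overlaps mt-Atp6, had at most 1 count in any set. The end of mt-Nd4l likewise overlaps mt-Nd4, by 7 bases. The ribosomal RNAs, of which 0% and 4.11% was shared, were near 0 at 6 h and not in the other sets. A near-zero count on mt-Co2, mt-Co3, mt-Atp6, mt-Nd3 or mt-Nd4l can not be taken as a measure of that message, and why these rows are low was not tested. The counts do not say from which of the 2 places a read on Gm28438 came. All of the last 100 bases of mt-Co1 occur in nuclear transcripts too, so its row, with 109358, 32379 and 160810 counts in the same order, may hold only a part of its reads.

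**Figure D1:**
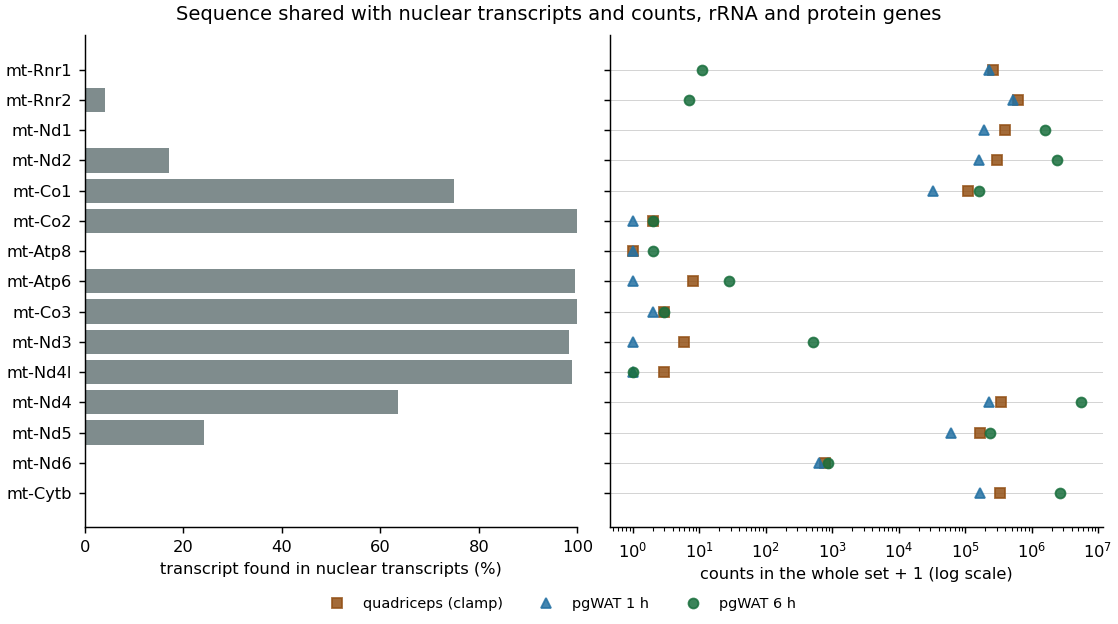
Left, percent of each mitochondrial rRNA and protein transcript found in nuclear transcripts by identical 50-base stretches (bars). Right, the gene's count summed over all libraries of a set, plus 1 and on a log scale, with squares for quadriceps, triangles for pgWAT at 1 h and circles for pgWAT at 6 h. The 5 transcripts with the longest bars have at most 27 counts in any set, apart from mt-Nd3 with 521 at 6 h, while mt-Nd4 at 63.6% has at least 226496 in each. Without long bars, mt-Atp8 is low in each set, and mt-Rnr1 and mt-Rnr2 are low at 6 h.

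Quadriceps and pgWAT 1 h libraries were made with a kit that adds molecular barcodes, whereas the standard kit was used for pgWAT at 6 h, and kit and time of sampling cannot be told apart. Counts on genes ran from 959980 to 2613672 per library in quadriceps, from 976610 to 4852560 at 1 h and from 9150496 to 12883462 at 6 h. All 8 skeletal muscle markers passed the low-count filter in quadriceps, and all 7 white adipocyte markers passed it in both pgWAT sets. Some libraries stood apart. In pgWAT at 1 h, 3 TG and 6 WT libraries carried over 200 CPM of summed liver markers or over 100 CPM of male duct epithelium markers. CPM in this choice was scaled by library totals alone. Every other CPM is a gene's count scaled to a common library size after TMM normalization. In pgWAT at 6 h, TG replicate 2 carried 1459 CPM of liver markers, and the ratio of mt-Cytb to mt-Nd2 was 0.604 in WT replicate 4 against 0.932 to 1.43 in the other libraries. In quadriceps, WT replicate 6 was the deepest library and had the lowest mitochondrial share. WT replicates 2 and 10 were marked by heat shock transcripts in earlier work on these files, and those values are not given here. WT replicate 2 also carried 249.9 CPM of liver markers, against at most 3.92 CPM in any TG library. Results that rest on these libraries are given with and without them, a choice made after seeing the data.

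Not every mitochondrial gene had counts to compare. In quadriceps 28 of the 37 had at least 1 count and 17 passed the low-count filter, at 1 h the numbers were 24 and 14, and at 6 h they were 28 and 18. The genes mt-Co1, mt-Cytb, mt-Nd1, mt-Nd2, mt-Nd4, mt-Nd5, mt-Nd6, mt-Ti, mt-Tm, mt-Tp, mt-Tq and mt-Tt were tested in every set, and 17 genes were tested in none. No read was counted in any library on 8 tRNA genes (mt-Td, mt-Tg, mt-Th, mt-Tk, mt-Tn, mt-Tr, mt-Ts1 and mt-Ty). A count of 0 allows up to 3 counts, or 0.12, 0.0826 and 0.0224 CPM over the quadriceps, 1 h and 6 h sets, which covers counting error only. Of the 8, mt-Ts1, mt-Td, mt-Tk, mt-Tg and mt-Tr lie within the stretch copied on chromosome 1, between its annotated copies, so their 0 may be no measure of them. Levels are compared between groups of 1 set and not between genes, because a 3′ count depends on how readable each end is.

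In quadriceps, the share of gene counts taken by mitochondrial transcripts did not differ between TG and WT by more than the spread between libraries. It was lowest at 9.15%, with a median of 10.6%, and highest at 11.2% in TG, against 7.37%, 10.7% and 11.2% in WT. The groups overlapped almost throughout, and the lowest WT value was that of replicate 6. Means were 10.49% ± 0.557 in TG and 10.33% ± 1.11 in WT (SD, n = 10 each), a difference of 0.167 percentage points that is smaller than either SD. Without the 3 WT libraries in doubt the difference was -0.0642 points.

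The protein genes gave the larger part of it. Their summed share was 6.06% at the lowest, 6.97% at the median and 7.36% at the highest in TG, against 5.38%, 6.72% and 7.15% in WT. The ribosomal RNAs summed to 2.95%, 3.59% and 3.91% in TG, against 1.97%, 3.89% and 4.41% in WT. Both sums overlapped between genotypes, with the WT libraries more widely spread. The tRNA genes summed to far smaller values, 108.2 to 485.8 CPM (median 217.7) in TG and 153.7 to 900.6 CPM (median 393.2) in WT, again with overlap.

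**Figure D2:**
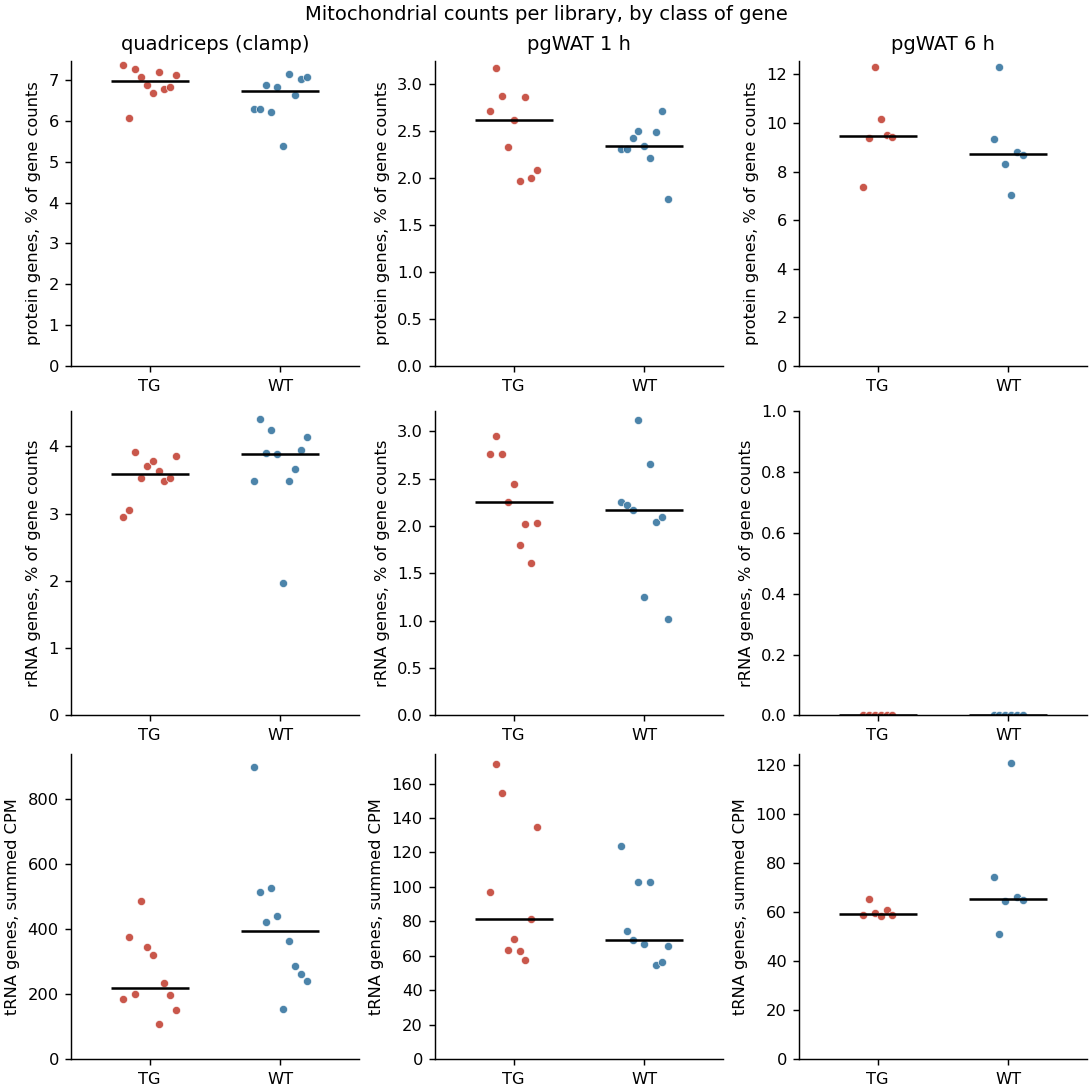
Percent of gene counts on mitochondrial protein genes (top) and rRNA genes (middle), and summed CPM of the tRNA genes (bottom), in each library (points, with bars at the median), TG left of WT in each set. TG and WT overlap in every panel, for example at 6.06 to 7.36% against 5.38 to 7.15% for protein genes in quadriceps, and the rRNA genes are near 0 at 6 h.

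None of the 17 tested genes passed an adjusted p of 0.05 in quadriceps by edgeR's quasi-likelihood test, while 2.04% of all genes tested (165 of 8070) did. DESeq2 called 0 of the 17 too, and 2 of them, mt-Ti and mt-Tm, had an unadjusted p under 0.05. No gene of the 17 had TG and WT libraries that did not overlap, beside 0.297% of all genes. Protein genes lay slightly above 0 on the log2 scale in 6 of 7 cases (median 0.05), both ribosomal RNAs lay below it (median -0.11) and tRNA genes lay below it in 7 of 8 cases (median -0.61), where the median over all genes was -0.00. Without the libraries in doubt these counts were 4 of 7 protein genes above 0, 2 of 2 ribosomal RNAs below and 8 of 8 tRNA genes below, with a tRNA median of -0.74.

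Among the ribosomal RNAs, mt-Rnr2, the 16S RNA of the large mitochondrial ribosomal subunit, was at 20880, 25690 and 28350 CPM in TG (lowest, median and highest), against 12200, 27010 and 33270 CPM in WT. Its log2 change was -0.06 (SE 0.11, adjusted p 0.903 by edgeR's quasi-likelihood test). The 12S RNA of the small subunit, mt-Rnr1, was at 7555, 10480 and 11540 CPM in TG and at 5093, 11940 and 14190 CPM in WT. For each of them the TG libraries sat inside the WT range, whose lower end was WT replicate 6 alone, with the next WT library at 9994 CPM for mt-Rnr1 and 24920 CPM for mt-Rnr2. For mt-Rnr1 9 of 10 TG libraries lay below the WT mean, and the log2 change of -0.15 (adjusted p 0.724 by edgeR) became -0.24 without WT replicate 6 (adjusted p 0.0494 by edgeR), which passed the threshold. Without all WT libraries in doubt, replicate 6 among them, the change was -0.19 (adjusted p 0.188 by edgeR) and did not pass.

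Of the complex I subunits, mt-Nd1 was at 15470, 17160 and 18300 CPM in TG, against 10700, 16490 and 17660 CPM in WT, a difference of 0.10 in log2 (SE 0.07, adjusted p 0.695 by edgeR). The value for mt-Nd4 was 12490, 14370 and 15740 CPM in TG, against 9182, 14260 and 15620 CPM in WT, a difference of 0.05 in log2 (SE 0.07, adjusted p 0.876 by edgeR). These genes take part in the proton-pumping membrane arm, and neither separated the genotypes. For mt-Nd2, another subunit of that arm, TG libraries lay at 11460, 13080 and 13780 CPM and WT libraries at 7890, 12380 and 13160 CPM. The subunit gene mt-Nd5 gave 5169, 6936 and 7501 CPM in TG and 5333, 6888 and 7637 CPM in WT. The gene mt-Nd6, the one protein gene on the opposite strand, overlaps the end of mt-Nd5 by 14 bases, and the strand used in counting is not given in the sources used here. It was at 26.9, 31.4 and 43.02 CPM in TG and at 12.4, 29.9 and 46.8 CPM in WT, on 766 counts in the set. Whether the message of mt-Nd6 carries a tail was not measured, so its row may not measure that message in any set. No subunit of complex I set all TG libraries apart from all WT libraries.

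The complex III subunit cytochrome b, mt-Cytb, was at 10920, 13860 and 14710 CPM in TG and at 10110, 13400 and 14850 CPM in WT. The catalytic complex IV subunit, mt-Co1, was the protein gene on the other side of 0, with 3195, 4200 and 4623 CPM in TG and 3914, 4559 and 5402 CPM in WT. Both ranges overlapped for both genes.

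The tRNA genes had few reads and wide ranges. For mt-Ti (isoleucine) the values were 5.49, 10.3 and 18.95 CPM in TG, against 12.1, 17.6 and 23.8 CPM in WT. TG libraries reached lower than any WT library, with overlap above that, and the log2 change was -0.59 (SE 0.19, unadjusted p 0.0042, adjusted p 0.119 by edgeR's quasi-likelihood test). For mt-Tm (methionine) TG libraries lay at 21.95, 40.8 and 81.6 CPM and WT libraries at 30.9, 68.9 and 142.5 CPM, a difference of -0.63 in log2 (SE 0.29, adjusted p 0.384 by edgeR). For mt-Tl1, 1 of the leucine tRNA genes, the change was -0.68 (SE 0.34, adjusted p 0.455 by edgeR). The proline gene mt-Tp was at 39.2, 74.4 and 224.1 CPM in TG and at 68.1, 149.1 and 496.0 CPM in WT. The glutamine gene mt-Tq was at 15.7, 32.6 and 66.3 CPM in TG and at 15.8, 53.5 and 73.4 CPM in WT. The libraries of each genotype were widely spread for all 5, and none passed the test. In this set 6 other tRNA genes had between 7 and 32 counts in all and were not tested.

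**Figure D3:**
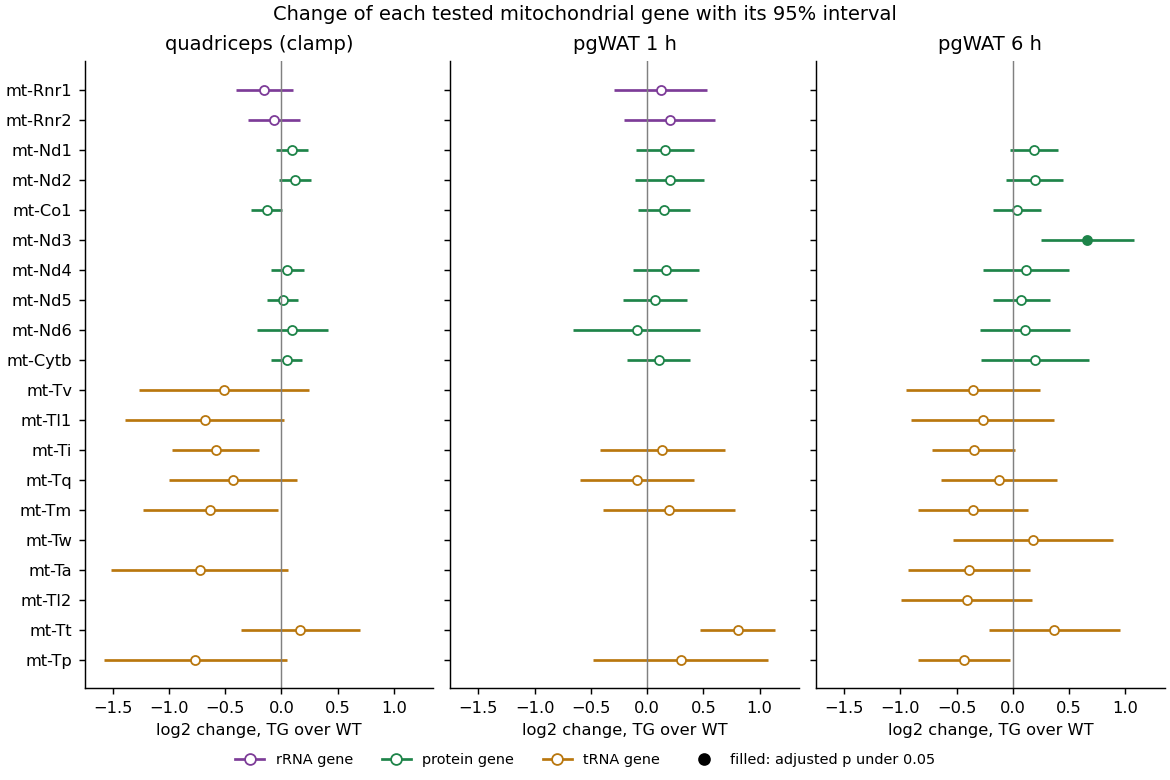
Log2 change of TG over WT (horizontal axis, points with 95% intervals) of each mitochondrial gene tested, coloured by class, with 1 panel for each set and filled points for an adjusted p under 0.05. Protein genes sit near 0 with medians of 0.05, 0.15 and 0.15, the tRNA genes have wider intervals, and mt-Nd3 at 6 h, at 0.66, is the one filled point.

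In pgWAT at 1 h, mitochondrial transcripts took a share of 3.62% at the lowest, 4.89% at the median and 6.14% at the highest in TG, against 2.80%, 4.58% and 5.62% in WT. The WT range covered most TG libraries. Means were 4.82% ± 0.867 in TG and 4.44% ± 0.807 in WT (SD, n = 9 each), and the difference of 0.376 points was smaller than either SD. Without the 9 libraries in doubt it was -0.0408 points. Depth moved with the share here, since the deepest libraries, TG replicate 8 (3.62%), WT replicate 9 (2.80%) and TG replicate 6 (3.77%), were among the 4 with the lowest share, and the part of depth in the result was not tested.

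Protein genes summed to 1.97%, 2.62% and 3.18% in TG and to 1.78%, 2.34% and 2.72% in WT. Ribosomal RNAs summed to 1.62%, 2.25% and 2.95% in TG and to 1.02%, 2.17% and 3.12% in WT. The tRNA genes summed to 57.3, 81.2 and 171.4 CPM in TG and to 54.8, 69.4 and 123.9 CPM in WT. In each class the genotypes overlapped.

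None of the 14 genes tested at 1 h passed the threshold by edgeR's quasi-likelihood test, while 0.0722% of all genes did (8 of 11087). DESeq2 called 1 of the 14, and 1 had an unadjusted p under 0.05, in each case mt-Tt. On the log2 scale 12 of the 14 lay above 0, made up of both ribosomal RNAs (median 0.16), 6 of 7 protein genes (median 0.15) and 4 of 5 tRNA genes (median 0.19), where all genes had a median of 0.01. Without the libraries in doubt 9 of the 14 lay above 0, made up of no ribosomal RNA, 6 protein genes and 3 tRNA genes.

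The threonine gene mt-Tt was the one gene of the 14 whose genotypes did not overlap. It follows mt-Cytb without a gap, at chrM:15289-15355 on the plus strand, and its sequence is shown with the anticodon in capitals because no other mitochondrial gene separated the genotypes in any set.
mt-Tt: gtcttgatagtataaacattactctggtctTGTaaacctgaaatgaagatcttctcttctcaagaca

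Its level was 12.4, 16.8 and 24.8 CPM in TG, against 7.15, 9.48 and 12.3 CPM in WT. All 9 TG libraries lay above all 9 WT libraries, though the lowest TG value and the highest WT value almost touched. A separation of this kind was seen for 0.0361% of all genes in either direction and for 0.018% with TG above WT. The log2 change was 0.81 (SE 0.16, 95% interval 0.47 to 1.14), with an unadjusted p of 4.67e-05 and an adjusted p of 0.0518 by edgeR's quasi-likelihood test, so the gene did not pass the threshold. It passed with DESeq2 (adjusted p 0.0164), without WT replicate 3 (adjusted p 0.0398 by edgeR) and without TG replicate 6 (adjusted p 0.0293 by edgeR). With each library left out in turn, mt-Tt stayed short of the threshold in 16 of 18 fits. It also did not pass with no filter on low counts (adjusted p 0.197 by edgeR) or with library totals as the scale (adjusted p 0.0569 by edgeR). The same held with the replicate number as a block (adjusted p 0.0827 by edgeR) and with the library number remainder as a factor (adjusted p 0.145 by edgeR). Without the libraries in doubt, which are 3 of the 9 TG and 6 of the 9 WT libraries, the change was 0.56 with an adjusted p of 0.9996 by edgeR. The part of the smaller groups in that p was not tested. The gene rests on 474 reads, between 19 and 73 in each TG library and between 12 and 30 in each WT library. Its neighbour mt-Cytb had a log2 change of 0.10 at 1 h, and in the other sets mt-Tt itself was at 0.17 (SE 0.26, adjusted p 0.884 by edgeR) in quadriceps and at 0.37 (SE 0.28, adjusted p 0.439 by edgeR) at 6 h.

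**Figure D4:**
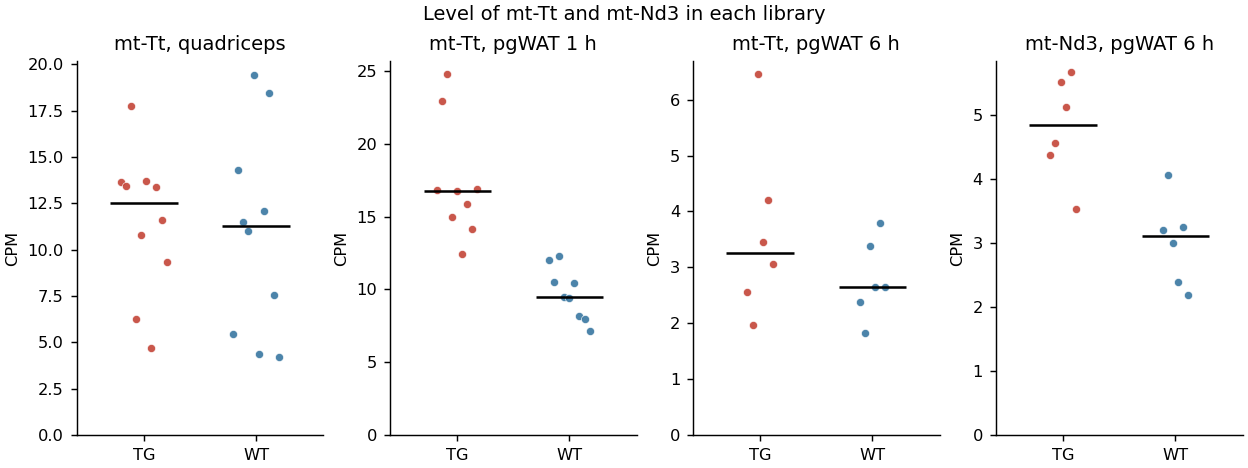
CPM in each library (points, bars at the median, axes from 0) of mt-Tt in each set and of mt-Nd3 in pgWAT at 6 h, TG left of WT. At 1 h the TG libraries of mt-Tt lie at 12.4 to 24.8 CPM and the WT libraries at 7.15 to 12.3 CPM, whereas in the other panels the genotypes overlap.

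The other genes at 1 h showed no such gap. The 16S RNA mt-Rnr2 was at 10760, 15950 and 21970 CPM in TG and at 6580, 14630 and 22110 CPM in WT, a difference of 0.20 in log2 (SE 0.19, adjusted p 0.9998 by edgeR). The 12S RNA mt-Rnr1 was at 4422, 6304 and 9524 CPM in TG and at 2773, 6743 and 9787 CPM in WT, a difference of 0.12 in log2 (SE 0.20, adjusted p 0.9998 by edgeR). Without the libraries in doubt these changes were -0.08 for mt-Rnr2 and -0.12 for mt-Rnr1, so even their direction was not settled.

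Among complex I genes, mt-Nd4 was at 4604, 7652 and 9442 CPM in TG and at 4583, 6208 and 7814 CPM in WT, a difference of 0.17 in log2 (SE 0.14, adjusted p 0.9998 by edgeR). For mt-Nd2 TG libraries gave 3601, 5212 and 7395 CPM and WT libraries gave 2502, 4400 and 5334 CPM, a difference of 0.20 in log2 (SE 0.15, adjusted p 0.9998 by edgeR). TG medians were the higher ones for both genes, and the ranges overlapped. The levels of mt-Nd1 were 4197, 6004 and 7463 CPM in TG and 4190, 5370 and 6034 CPM in WT. Those of mt-Nd5 were 1145, 1761 and 2266 CPM in TG and 1052, 1717 and 2140 CPM in WT. The light reading of mt-Nd6, at 9.66, 17.5 and 26.5 CPM in TG and 5.199, 22.5 and 27.3 CPM in WT, overlapped as well.

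Outside complex I, mt-Co1 was at 710 to 1426 CPM (median 906.3) in TG and at 682.3 to 1019 CPM (median 842.5) in WT, a log2 change of 0.15 (SE 0.11, adjusted p 0.9998 by edgeR). Cytochrome b, mt-Cytb, was at 3724, 4900 and 6512 CPM in TG and at 3375, 4807 and 5806 CPM in WT. Neither gene separated the genotypes. The remaining tRNA genes tested had log2 changes of 0.14 for mt-Ti, -0.09 for mt-Tq, 0.19 for mt-Tm and 0.30 for mt-Tp, none past the threshold. Of the tRNA genes left untested at 1 h, mt-Tv had the most counts, with 221, and mt-Tf the fewest above 0, with 1.

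In pgWAT at 6 h nearly all mitochondrial counts came from protein genes, since the 2 ribosomal RNA genes together had 16 counts in 12 libraries and were not tested. The table also lists the 12S and 16S RNA transcripts once more under transcript identifiers, each with 0 counts. The total share was 7.35%, 9.46% and 12.3% in TG, against 7.06%, 8.74% and 12.3% in WT. Both genotypes spanned almost the same range. Means were 9.68% ± 1.59 in TG and 9.09% ± 1.74 in WT (SD, n = 6 each), a difference of 0.598 points, smaller than either SD, and of 0.252 points without TG replicate 2 and WT replicate 4. The tRNA genes summed to 58.5, 59.4 and 65.3 CPM in TG and to 51.03, 65.5 and 121.1 CPM in WT, where the highest was WT replicate 4.

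Of the 18 genes tested at 6 h, 1 passed the threshold by edgeR's quasi-likelihood test, beside 14.4% of all genes (2071 of 14359), made up of 6.88% higher in TG (988 genes) and 7.54% lower (1083 genes). With library totals as the scale the split over all genes was 665 higher and 1463 lower. DESeq2 also called 1 of the 18, and 2 had an unadjusted p under 0.05. No tested gene had genotypes that did not overlap, beside 7.66% of all genes. All 8 protein genes tested lay above 0 (median 0.15), and 8 of 10 tRNA genes lay below it (median -0.35), where all genes had a median of 0.00. With library totals as the scale mt-Co1 fell on the other side of 0 (-0.03), leaving 7 of 8 protein genes above it. Without the libraries in doubt all 8 protein genes again lay above 0 (median 0.07) and 6 of 10 tRNA genes below it (median -0.13). Without WT replicate 4 alone the medians were 0.07 for protein genes and -0.06 for tRNA genes, and without TG replicate 3 alone 6 of 8 protein genes lay above 0.

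The sum of the skeletal muscle markers differed with genotype in this set. All 8 had counts, and their sum was 67.3, 84.8 and 122.8 CPM in TG, against 25.9, 37.7 and 53.6 CPM in WT, with no overlap. Of the 3 that were tested, 2 lay above 0 on the log2 scale and 1 lay below it, at -0.08. Only Acta1, the skeletal actin, passed the threshold, higher in TG by 1.26 (adjusted p 0.00602 by edgeR). In quadriceps the same 8 markers summed to between 50470 and 58800 CPM in TG and between 40690 and 69260 CPM in WT. Their part in the mitochondrial share was not tested.

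The gene that passed was mt-Nd3, higher in TG at 3.54, 4.85 and 5.68 CPM, against 2.19, 3.11 and 4.07 CPM in WT. The genotypes overlapped in that TG replicate 6 lay below WT replicate 2. The log2 change was 0.66 (SE 0.20, 95% interval 0.25 to 1.08, adjusted p 0.0310 by edgeR's quasi-likelihood test), on 44 to 66 reads in each TG library and 24 to 47 in each WT library. Gm28438, the chromosome 1 copy shown above with its 1 differing base, was at 187.9, 223.6 and 299.3 CPM in TG and at 175.1, 194.1 and 332.3 CPM in WT, a difference of 0.11 in log2 (SE 0.16, adjusted p 0.708 by edgeR). With both added together the change was 0.12 (adjusted p 0.680 by edgeR). The call was lost too with no filter on low counts (adjusted p 0.0648 by edgeR), without the libraries in doubt (adjusted p 0.0920 by edgeR) and without any 1 of TG replicates 3, 4 and 5 and WT replicates 4 and 6. In quadriceps mt-Nd3 had 5 counts, and at 1 h it had 0.

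The other complex I genes at 6 h had higher TG medians without passing the test. The most counted, mt-Nd4, was at 28770, 41620 and 57520 CPM in TG and at 26200, 37830 and 59390 CPM in WT, a difference of 0.12 in log2 (SE 0.18, adjusted p 0.720 by edgeR). For mt-Nd2 TG libraries gave 15630, 18130 and 25880 CPM and WT libraries gave 14620, 16000 and 21480 CPM, a difference of 0.20 in log2 (SE 0.12, adjusted p 0.324 by edgeR). WT libraries spanned the wider range for mt-Nd4 and TG libraries for mt-Nd2. For mt-Nd1 the values were 9982, 12980 and 15440 CPM in TG and 10140, 10740 and 13490 CPM in WT. Those of mt-Nd5 were 1319, 1820 and 2325 CPM in TG and 1470, 1701 and 2213 CPM in WT. The gene mt-Nd6 was at 5.80, 6.99 and 7.28 CPM in TG and at 4.38, 5.85 and 10.1 CPM in WT. Each of these overlapped between genotypes.

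Cytochrome b was at 14570, 21660 and 29320 CPM in TG and at 10070, 18100 and 30760 CPM in WT, a difference of 0.20 in log2 (SE 0.22, adjusted p 0.633 by edgeR). The complex IV gene mt-Co1 was at 887.8, 1264 and 1387 CPM in TG and at 1032, 1153 and 1459 CPM in WT. In both the WT libraries enclosed most of the TG values.

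Among the tRNA genes at 6 h, mt-Tp was at 2.46, 4.63 and 5.06 CPM in TG and at 4.33, 5.90 and 6.97 CPM in WT, a difference of -0.43 in log2 (SE 0.19, unadjusted p 0.0386, adjusted p 0.158 by edgeR's quasi-likelihood test). For mt-Ti TG libraries lay at 5.28, 6.87 and 8.67 CPM and WT libraries at 5.98, 8.70 and 11.6 CPM, a difference of -0.35 in log2 (SE 0.17, adjusted p 0.213 by edgeR). TG libraries reached lower than WT libraries for both, with overlap. The methionine gene mt-Tm was at 17.5, 21.2 and 23.6 CPM in TG and at 14.2, 24.5 and 48.3 CPM in WT. The leucine gene mt-Tl2 was at 4.65, 5.496 and 7.93 CPM in TG and at 4.93, 5.86 and 16.5 CPM in WT. In both the highest WT value was that of replicate 4, and the same library set the sign for mt-Tv and mt-Tl1, which went to 0.03 and 0.14 without it, against -0.35 and -0.27 with it. Of the other untested genes at 6 h, mt-Tc had the most counts, with 50, and mt-Atp6 had 27.

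Whether the change in pgWAT differed between 6 h and 1 h was tested as an interaction over both sets. The joint filter let 20 mitochondrial genes through, of which 12 had passed it in both sets. The others could say little, since mt-Nd3 had 0 counts at 1 h, mt-Rnr1 and mt-Rnr2 had 10 and 6 counts at 6 h, and 5 tRNA genes were too low for a test at 1 h alone. None of the 20 passed the threshold by edgeR's quasi-likelihood test, beside 4.2% of all genes (547 of 13022), and 1 had an unadjusted p under 0.05. That gene was mt-Tl2, which is among those 5, at -1.83 on the log2 scale for 6 h minus 1 h (p 0.0145, adjusted p 0.166 by edgeR), with 55 counts at 1 h. For mt-Tt the difference was -0.44 (SE 0.30, adjusted p 0.549 by edgeR), so a change at 1 h and not at 6 h was not shown. DESeq2 was not run for this difference. The kit coincides with the time, and its part was not tested.

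The nuclear partners of the mitochondrial genome were followed in the same fits. In quadriceps 79 nuclear genes of complexes I to V were tested and 0 passed the threshold (median log2 -0.01), beside 2.04% of all genes by edgeR. In pgWAT at 1 h 77 were tested and 0 passed, a share near the 0.0722% over all genes. Genes for mitochondrial transcription, RNA processing and DNA upkeep gave 0 calls in those sets as well, among 12, 18 and 8 genes tested in quadriceps and 12, 19 and 10 at 1 h. The summed CPM of complexes I to V overlapped between genotypes, at 29130 to 35780 in TG and 30420 to 35460 in WT in quadriceps, and at 11380 to 17170 in TG and 12300 to 16780 in WT at 1 h.

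In pgWAT at 6 h, 1 of 79 nuclear subunit genes rose in TG and 0 fell, with 63 above 0 and 16 below and a median of 0.05, beside 6.88% higher and 7.54% lower over all genes. The gene was Ndufc2, an accessory subunit of complex I, at 237.1, 246.1 and 277.4 CPM in TG and at 200.5, 204.8 and 232.1 CPM in WT, a difference of 0.24 in log2 (SE 0.06, adjusted p 0.00862 by edgeR). All 6 TG libraries lay above all 6 WT libraries. The summed CPM of the complexes was 17580, 19280 and 21490 in TG and 17080, 18170 and 21950 in WT, with overlap. Over all genes 7206 lay above 0 on the log2 scale and 7153 below. With library totals as the scale the median over all genes moved by -0.0667, further than the 0.05 of the subunit genes lies from 0. The split of the 79 genes under that scale was not tested.

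Of 14 genes that control mitochondrial transcription, 2 fell at 6 h and 0 rose (median -0.10), where 7.54% of all genes fell and 6.88% rose. Both encode coactivators known for driving mitochondrial gene programmes in muscle and brown fat. Ppargc1b was at 5.47, 8.12 and 10.99 CPM in TG, against 12.7, 20.3 and 28.0 CPM in WT, and every TG library lay below every WT library. Its log2 change was -1.34 (SE 0.20, adjusted p 0.00033 by edgeR), and the call held with each library left out in turn, at -1.45 to -1.24. Ppargc1a was at 2.56, 3.52 and 5.32 CPM in TG and at 4.46, 7.02 and 15.3 CPM in WT, with overlap, and its log2 change was -1.18 (SE 0.33, adjusted p 0.0238 by edgeR). That call was lost with no filter on low counts (adjusted p 0.0539 by edgeR), and without any 1 of WT replicate 6 and TG replicates 1, 4 and 5. At 1 h the changes were 0.00 (SE 0.16) for Ppargc1b and 0.38 (SE 0.31) for Ppargc1a. In the interaction test Ppargc1b differed between 6 h and 1 h by -1.34 (SE 0.26, adjusted p 0.000943 by edgeR) and Ppargc1a by -1.56 (adjusted p 0.0581 by edgeR).

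**Figure D5:**
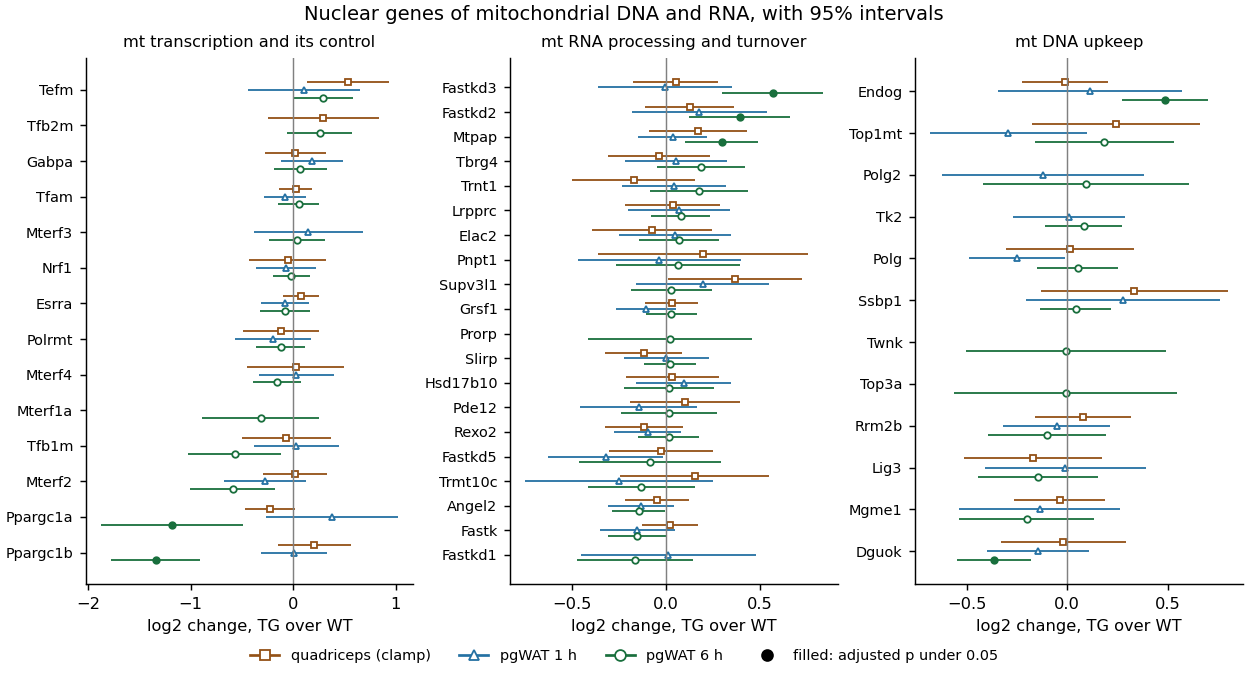
Log2 change of TG over WT (points with 95% intervals) of nuclear genes for mitochondrial transcription, RNA processing and DNA upkeep, with squares for quadriceps, triangles for pgWAT at 1 h, circles for pgWAT at 6 h and filled points for an adjusted p under 0.05. The filled points are all at 6 h, with Ppargc1b at -1.34, Ppargc1a at -1.18 and Dguok at -0.37 below 0, and Fastkd3 at 0.57, Endog at 0.48, Fastkd2 at 0.39 and Mtpap at 0.30 above it.

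Of 20 genes for mitochondrial RNA processing, 3 rose at 6 h and 0 fell (median 0.03), beside 6.88% and 7.54% of all genes. Fastkd3, a mitochondrial RNA-binding protein, was at 9.12, 11 and 11.5 CPM in TG and at 5.81, 7.06 and 8.74 CPM in WT, without overlap, a difference of 0.57 in log2 (SE 0.13, adjusted p 0.00514 by edgeR). Mtpap, the mitochondrial poly(A) polymerase, was at 26.1, 33.5 and 35.2 CPM in TG and at 21.9, 26.5 and 28.4 CPM in WT, a difference of 0.30 in log2 (SE 0.09, adjusted p 0.0367 by edgeR). Fastkd2, which is known to act on the 16S RNA, was at 9.63, 9.95 and 12.3 CPM in TG and at 6.60, 7.69 and 9.62 CPM in WT, a difference of 0.39 in log2 (SE 0.13, adjusted p 0.0471 by edgeR). Its genotypes did not overlap, though 9.63 CPM in TG and 9.62 CPM in WT almost met, whereas those of Mtpap did. The calls of Mtpap and Fastkd2 were lost without the libraries in doubt (adjusted p 0.0724 and 0.0945 by edgeR), with the replicate number as a block (adjusted p 0.0796 and 0.0625 by edgeR) and with library totals as the scale (adjusted p 0.123 and 0.0997 by edgeR). Fastkd2 also lost its call with no filter on low counts (adjusted p 0.109 by edgeR). With each library left out in turn, Mtpap was called in 5 of 12 fits (adjusted p 0.0128 to 0.0846 by edgeR) and Fastkd2 in 2 of 12 (adjusted p 0.0296 to 0.109 by edgeR).

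Among 12 genes for mitochondrial DNA upkeep, 1 rose and 1 fell at 6 h (median 0.02), a share near the 6.88% and 7.54% over all genes. Endog, a nuclease of the organelle, was at 20.7, 22.5 and 25.5 CPM in TG and at 12.8, 17.4 and 18.5 CPM in WT, without overlap, a difference of 0.48 in log2 (SE 0.10, adjusted p 0.00329 by edgeR). Dguok, the kinase that salvages purine deoxynucleosides for mitochondrial DNA, was at 34.99, 43.6 and 52.9 CPM in TG and at 52.6, 56.3 and 63.5 CPM in WT, a difference of -0.37 in log2 (SE 0.09, adjusted p 0.00778 by edgeR). The ranges of Dguok overlapped at a single TG library. Of nuclear-retained RNAs, Neat1 was at 734.3, 891.3 and 1043 CPM in TG and at 1180, 1626 and 1886 CPM in WT (log2 change -0.83, adjusted p 6.9e-05 by edgeR), and Malat1 had a log2 change of -0.00. The part of RNA quality in these changes was not tested.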

How the data were processed

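The authors deposited 3 tables of read counts per gene, made from poly(A)-primed 3′ libraries (QuantSeq 3′ FWD), which hold 50 libraries. Tools named in the submitters' processing notes include STAR 2.7.10, cutadapt 1.18, UMI-tools 1.1.2 and bcl2fastq 2.20.0.422, beside both GRCm38 and GRCm39; which table used which build, how reads with several matches were treated, the counting strand and whether molecular barcodes were collapsed are not given in the sources used here. Rows that name no gene (5, 5 and 121 rows) were left out.

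Each set was fitted alone on its whole table with edgeR 4.0.16 in R 4.3.3 (low-count filter by genotype, TMM scaling, quasi-likelihood test), with Benjamini-Hochberg adjustment over all genes tested at a threshold of 0.05. The difference between pgWAT sets was an interaction term. SEs came from the log2 change and its F statistic. Shares are percent of gene counts, and sums over genes got no test. DESeq2 1.42.0, other scalings, no filter, a replicate block, the remainder of the library number on division by 8 and leaving out each library were alternatives; without the libraries in doubt and with chromosome 1 copies added were chosen after seeing the data. The fits were tested on simulated data with known answers. Sequences and positions came from GENCODE vM21 transcripts on GRCm38. Genes were named by a rule: every ribosomal RNA and protein gene that passed the filter, the 3 tRNA genes with the highest mean level, any gene past the threshold, the 3 with the smallest p and the 3 most counted in each set, and up to 4 genes per list and direction. The genes, lists and tests were chosen with earlier results of these data known. The counts printed beside the genes set the precision.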

Additional observations from a re-analysis of the deposited data

Results flagged for a closer look

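In 120 groups of libraries (a class sum or a gene, within 1 genotype of 1 set), 23 held a library far from the rest by Dixon's test, and chance gives about 1 in 20. Values are followed by that of the nearest library, and no cause was tested.

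In quadriceps, TG replicate 2 had the lowest total share (9.151%, nearest 10.29%), protein share (6.059%, nearest 6.669%) and mt-Nd5 level (5169 CPM, nearest 6496 CPM), and TG replicate 4 the highest mt-Nd6 level (43.02 CPM, nearest 34.8 CPM). WT replicate 6 was lowest for the total share (7.367%, nearest 9.851%) and the ribosomal RNA share (1.972%, nearest 3.485%). The same library was lowest for mt-Rnr1 (5093 CPM, nearest 9994 CPM), mt-Rnr2 (12200 CPM, nearest 24920 CPM), mt-Nd1 (10700 CPM, nearest 15080 CPM), mt-Nd2 (7890 CPM, nearest 11490 CPM) and mt-Nd4 (9182 CPM, nearest 13120 CPM). WT replicate 1 was highest for the summed tRNA genes (900.6 CPM, nearest 527.1 CPM) and for mt-Tp (496.0 CPM, nearest 214.6 CPM).

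In pgWAT at 1 h, TG replicate 3 was highest for mt-Co1 (1426 CPM, nearest 1034 CPM) and WT replicate 9 lowest for mt-Nd2 (2502 CPM, nearest 4176 CPM).

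In pgWAT at 6 h, TG replicate 2 was highest for the summed tRNA genes (65.29 CPM, nearest 60.96 CPM) and TG replicate 1 lowest for mt-Tp (2.464 CPM, nearest 4.127 CPM). WT replicate 4 was highest for the summed tRNA genes (121.1 CPM, nearest 74.26 CPM), mt-Tv (14.55 CPM, nearest 5.875 CPM), mt-Tl1 (8.514 CPM, nearest 3.58 CPM), mt-Tm (48.27 CPM, nearest 26.23 CPM) and mt-Tl2 (16.53 CPM, nearest 7.527 CPM). WT replicate 2 was highest for mt-Nd2 (21480 CPM, nearest 16720 CPM).

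The change of Ppargc1b in TG over WT differed between the pgWAT sets, by -1.337 at 6 h minus 1 h on the log2 scale (interaction term, adjusted p 0.000943 by edgeR).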

How the results depend on the processing

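No result changed direction while past the threshold under any alternative run. Among single genes, 1453 alternative values kept their side of the threshold, 37 lost a call and 5 gained one. The 1453 include values of genes that were never called and had no call to lose. All 37 losses fell on mt-Nd3, Mtpap, Fastkd2 and Ppargc1a in pgWAT at 6 h. Counts of mitochondrial genes called moved little. In quadriceps the count was 0 and went from 0 to 1 with each library left out, gaining mt-Rnr1 (-0.24, adjusted p 0.0494 by edgeR) without WT replicate 6 and mt-Ti (-0.70, adjusted p 0.0492 by edgeR) without TG replicate 2. In pgWAT at 1 h it was 0, then 1 with DESeq2 and 0 to 1 with each library left out. At 6 h it was 1, then 0 with no filter on low counts, 0 with the chromosome 1 copies added, 0 without the libraries in doubt and 0 to 1 with each library left out. The adjusted p of mt-Nd3 lay between 0.0184 and 0.0688 with each library left out (edgeR). For mt-Tt at 1 h the log2 change lay between 0.72 and 0.86 and its adjusted p between 0.0293 and 0.143 (edgeR).

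Over all genes at 1 h, 8 calls became 5 with no filter, 5 with the replicate block, 3 with the library number remainder, 19 with DESeq2, 1 without the libraries in doubt and 3 to 12 with each library left out; the cause was not tested. The difference in mitochondrial share lay between -0.16 and 0.32 points in quadriceps, 0.171 and 0.526 at 1 h and 0.0790 and 1.24 at 6 h with each library left out, and its sign in quadriceps turned only without WT replicate 6. Whether the replicate numbers pair the libraries was not settled. Same-numbered libraries correlated at -0.177 to 0.197 in quadriceps, -0.18 to 0.373 at 1 h and -0.113 to 0.126 at 6 h. Libraries with different numbers were not compared, so these values have no reference. With the number as a block the calls over all genes were 143, 5 and 1873. The tRNA genes tested rest on few reads and spread widely between libraries, so small changes in them may have been missed. The part of depth in this was not tested.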
